A study of Mus musculus with 4 samples.

Results

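The type I interferon-stimulated antiviral genes are 53 mouse genes that cells switch on when interferon-α or interferon-β reaches them. They were chosen by symbol as known interferon-stimulated genes, with earlier results of these data known, and all 53 were found among the 54752 genes listed in the count tables. Counts came from 2 WT and 2 Mek1/2-tKO libraries of CD4+ T cells that had been polarized toward T follicular helper (Tfh) cells in vitro and collected on day 3. The Mek1/2-tKO cells came from C57BL/6-background mice that carry Cd4-Cre with both Map2k1 fl/fl and Map2k2 fl/fl. This design deletes MEK1 and MEK2, the kinases that activate ERK, in T cells. The WT cells came from littermate controls. Cd4-Cre acts in cells that have expressed Cd4 during their development in the thymus, so B cells and NK cells of these mice are not expected to be deleted. In both groups naive splenic CD4+ T cells were cultured with plate-bound anti-CD3, anti-CD28 and IL-6. IFN-γ, IL-2, TGF-β and IL-4 were blocked with antibodies, and viable cells were sorted again before RNA extraction. The age of the mice, the Cre and flox alleles of the WT littermates and whether the 2 libraries of a genotype came from separate mice are not given in the sources used here. The p-values therefore measure only the spread between these libraries, which may be technical. The comparison asks how these genes differed between the Mek1/2-tKO and WT libraries under Tfh-polarizing conditions.

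Type I interferons bind the receptor made of IFNAR1 and IFNAR2, whose kinases JAK1 and TYK2 phosphorylate STAT transcription factors. With IRF9 these bind the interferon-stimulated response element (ISRE) in the promoters of target genes. The products act on viruses at each step: IFITM proteins at entry, IFIT, OAS and PKR proteins on viral RNA and its translation, viperin and ISG20 on RNA synthesis, and tetherin at release. In T cells the same genes also respond in part to interferon-γ, and several of them, such as Slfn2, are expressed at rest.

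The libraries held 18858860 and 18807774 counts in WT and 16330802 and 18931090 counts in Mek1/2-tKO, so that 3 counts, the most that a count of 0 allows, correspond to 0.159 to 0.184 CPM. CPM is the count of a gene scaled to a common library size, and all CPM below also use edgeR's TMM factors. These limits cover counting error only. Map2k1 (MEK1) had 182 and 187 CPM in WT and 97.99 and 105 CPM in Mek1/2-tKO. It was lower in Mek1/2-tKO at a log2 fold change of -0.86 (adjusted p = 1.29e-06, edgeR's quasi-likelihood test). Map2k2 (MEK2) had 154 and 165 CPM in WT and 172 and 182 CPM in Mek1/2-tKO. Its log2 fold change of 0.15 did not pass (adjusted p = 0.126, edgeR's quasi-likelihood test). The whole-gene counts thus show a partial fall of Map2k1 and none called for Map2k2, and such a count cannot tell a transcript without its floxed exons from a complete one. The label CD4+ T cell was read against marker genes. Of 12 T-cell markers 6 were lower and 1 was higher in Mek1/2-tKO, and their summed level was 3413 and 3427 CPM in WT and 2883 and 2712 CPM in Mek1/2-tKO. Cd4 itself had 297 and 289.5 CPM in WT and 18.8 and 25.1 CPM in Mek1/2-tKO, so the marker that names the cells was lower in both Mek1/2-tKO libraries. Most markers of other cells moved the other way, where 19.3% of all genes tested were called higher and 16.4% lower. Called higher were 16 of 18 B-lineage markers, and the 18 summed to 1663 to 1689 CPM in the WT libraries against 7671 to 7674 CPM in those of Mek1/2-tKO. The B-lineage marker Fcer2a was instead called lower (log2 fold change -0.59), and Pou2af1 was not called (0.42). Also called higher were 10 of 10 NK markers (149.1 to 150.2 against 865.2 to 944.4 CPM) and 5 of 6 gamma-delta T-cell markers (4.36 to 6.98 against 166.3 to 184.6 CPM). Both CD8 genes were higher too (59.3 to 67.4 against 213.9 to 238.0 CPM). The same held for 8 of 12 myeloid markers (95.9 to 107.5 against 366.9 to 383.4 CPM, most of it Mpeg1 and Cybb). Lyz2 had 0.411 and 0.622 CPM in WT and 10.2 and 6.23 CPM in Mek1/2-tKO, and Csf1r, Itgam, Fcgr1 and Csf3r had too few counts to be tested. Of 6 plasmacytoid dendritic markers Ly6d and Ccr9 were higher and Pacsin1 was not called. Siglech, Cox6a2 and Klk1 had too few counts to be tested. The summed level of the 6 (41.5 to 42.8 against 358.4 to 403.4 CPM) was mostly that of Ly6d (29.67 to 32.95 against 343.9 to 389.2 CPM). Of 6 conventional dendritic markers 3 were higher (7.88 to 9.19 against 26.4 to 29.2 CPM). Adgre1, S100a8, Siglech, Clec9a and Trdv4 were at 0 in both WT libraries, and Siglech and Clec9a stayed at or under 6 counts in Mek1/2-tKO. In bulk libraries fewer cells of a type and less RNA per cell cannot be told apart, and the part of these markers in the results below was not tested.

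The interferon-stimulated genes took 0.180 and 0.177% of the counts in WT and 0.268 and 0.271% in Mek1/2-tKO, a summed level of 1742 and 1727 CPM against 2830 and 2733 CPM. Of the 53 genes 52 had enough counts to be tested. A call needed a fold change of 1.5 or more and an adjusted p under 0.05 (edgeR's quasi-likelihood test, adjusted over all 14330 genes tested). In Mek1/2-tKO 25 were called higher, which is 48.1% of those tested beside 19.3% of all genes tested. Another 4 were called lower, which is 7.69% beside 16.4% of all genes tested. The median log2 fold change was 0.80 over the 52 genes and 0.02 over all genes tested. Both Mek1/2-tKO libraries lay above both WT libraries for 35 of the 52 genes, beside 39.5% of all genes tested, and below them for 10, beside 38.8%. The genotypes overlapped for the remaining 7. Of the 25 higher genes 11 differed by at least 4-fold, 5 of these by at least 10-fold, and 3 by less than 2-fold. Of the 23 genes that were not called, 10 passed the p threshold with a smaller fold change, 5 in each direction, and 13 did not pass it. The highest adjusted p was 0.00125 (Slfn1) among the genes called higher and 0.00402 (Oas3) among those called lower, both from edgeR's quasi-likelihood test. The 25 and the 4 genes were the same in DESeq2.

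**Figure D1:**
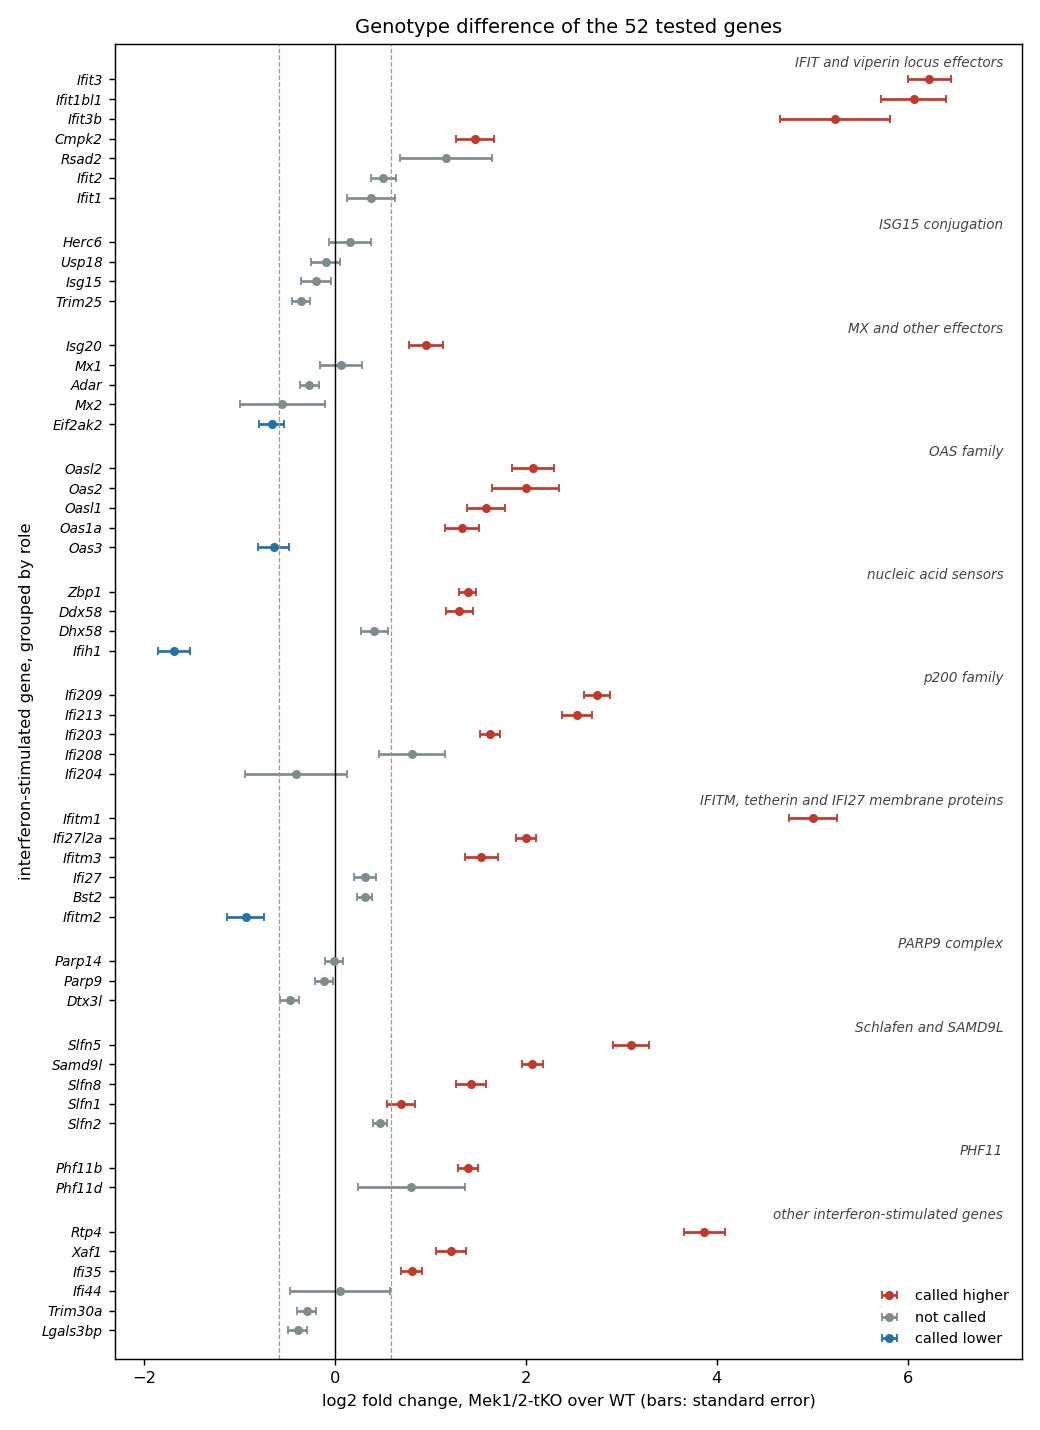
Log2 fold change of each of the 52 tested genes in Mek1/2-tKO over WT (x axis), with bars for the standard error and genes grouped by role (y axis); dashed lines mark a fold change of 1.5 in either direction. The 5 largest differences, at least 10-fold, belong to Ifit3, Ifit1bl1, Ifit3b, Ifitm1 and Rtp4. No gene of the small ISG15 and PARP9 groups (4 and 3 genes) was called, beside 19.3% called higher and 16.4% called lower of all genes tested.

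On the length-corrected scale (RPKM, CPM per kilobase of exon), the 25 genes called higher had a median of 2.25 RPKM in WT and 13.9 RPKM in Mek1/2-tKO, and those above 10 RPKM went from 6 to 14. The 23 genes that were not called had a median of 6.92 RPKM in WT and 6.99 RPKM in Mek1/2-tKO, and the 4 called lower went from 4.72 to 3.00 RPKM. In WT the highest levels were those of Slfn2 at 208 RPKM, Bst2 at 166 RPKM and Ifi27l2a at 159.9 RPKM. The same 3 genes were highest in Mek1/2-tKO, where Ifi27l2a, at 641 RPKM, stood above Slfn2 at 288 and Bst2 at 206 RPKM. Ifi27l2a alone made up 17.5% of the summed RPKM of the 53 genes in WT and 36.2% in Mek1/2-tKO.

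**Figure D2:**
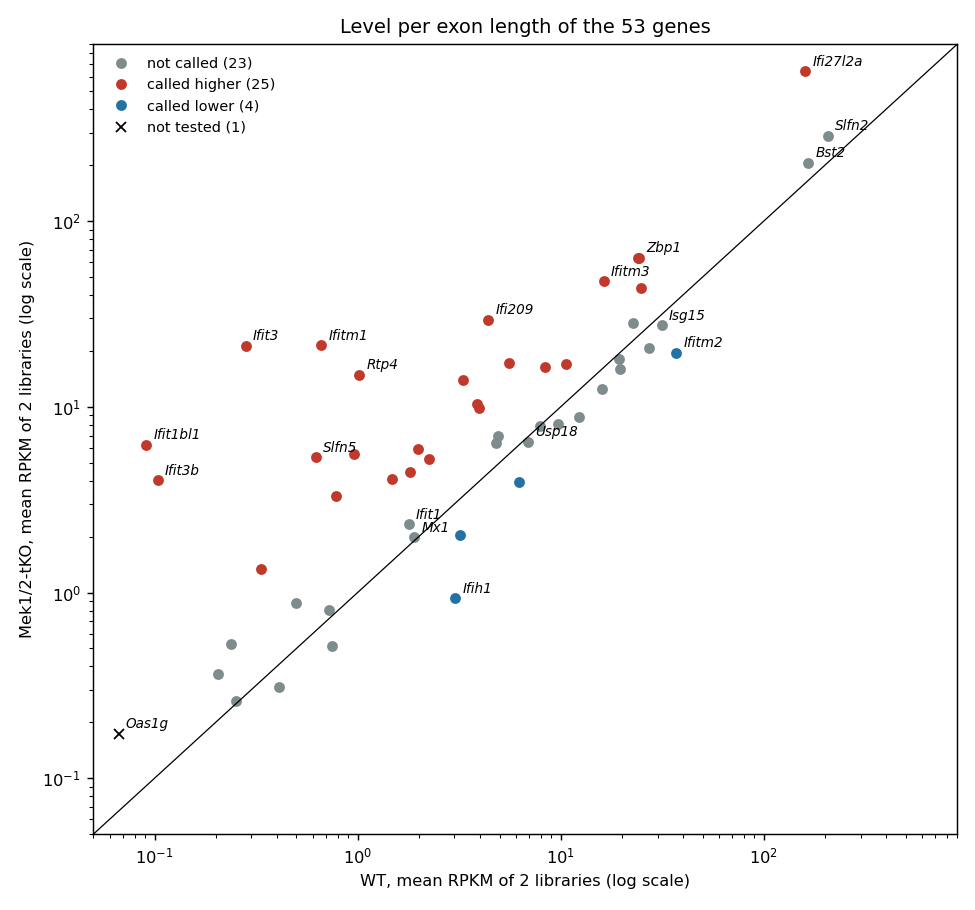
Mean level of each of the 53 genes in WT (x axis) and Mek1/2-tKO (y axis) in RPKM on log scales, 2 libraries each, coloured by call; points on the line are equal in both. The genes farthest above the line, Ifit3, Ifit1bl1, Ifit3b and Ifitm1, lay under 1 RPKM in WT, while Isg15, Usp18 and Mx1 lay near the line.

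The IFIT proteins bind viral RNA that lacks the cap marks of the host, and their genes lie side by side on chromosome 19 (chr19:34550694-34650009, GRCm38). Ifit3 (ENSMUSG00000074896.3, chr19:34583531-34588731), whose product works in a complex with other IFIT proteins, had 0.513 and 0.467 CPM in WT and 38.7 and 35.7 CPM in Mek1/2-tKO. This was the largest rise of all 52 genes, 6.23 on the log2 scale (standard error 0.23, adjusted p = 1.03e-10, edgeR's quasi-likelihood test). Its neighbour Ifit1bl1, an Ifit1 paralog, had 0.205 and 0.207 CPM in WT and 13.6 and 14.9 CPM in Mek1/2-tKO and a log2 fold change of 6.06 (standard error 0.34). Ifit3b, a close paralog of Ifit3, had 0 and 0.415 CPM in WT and 8.46 and 7.62 CPM in Mek1/2-tKO and a log2 fold change of 5.24 (standard error 0.57). All 3 genes were nearly silent in both WT libraries and present in both Mek1/2-tKO libraries. In raw counts Ifit3 had 10 and 9 counts in WT and 599 and 671 counts in Mek1/2-tKO. Ifit1bl1 had 4 and 4 counts in WT and 210 and 279 counts in Mek1/2-tKO, and Ifit3b had 0 and 8 counts in WT and 131 and 143 counts in Mek1/2-tKO. Since 1 WT library held 0 counts of Ifit3b, its fold change moved between 4.25 and 10.17 on the log2 scale when 1 library was left out. Of the 150-base stretches of their transcripts, 18.5% of those of Ifit3 and 16% of those of Ifit3b also occurred in the other gene. A single read in such a stretch has no unique place, but reads were paired, and the other read of a pair may give one.

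The genes at both ends of the same cluster behaved otherwise. Ifit2, at the left end, had 19.7 and 18.9 CPM in WT and 27.9 and 27 CPM in Mek1/2-tKO. Its log2 fold change of 0.51 passed the p threshold but not the fold threshold (adjusted p = 0.00517, edgeR's quasi-likelihood test). Ifit1, at the right end, had 4.93 and 4.56 CPM in WT and 6.72 and 5.64 CPM in Mek1/2-tKO and was not called (log2 fold change 0.38, adjusted p = 0.226, edgeR's quasi-likelihood test). In Mek1/2-tKO both libraries lay above both WT libraries for Ifit2 and for Ifit1, but by less than 1 unit of log2, where the middle 3 genes differed by 5 or 6 units. Rsad2 encodes viperin, which makes a chain-terminating nucleotide, and Cmpk2, the kinase gene next to it, supplies the nucleotide it uses. Cmpk2 had 5.18 and 7.16 CPM in WT and 17.8 and 16.5 CPM in Mek1/2-tKO and was called higher (log2 fold change 1.47, standard error 0.20). Rsad2 had 1.03 and 1.04 CPM in WT and 1.68 and 2.93 CPM in Mek1/2-tKO and missed the p threshold (log2 fold change 1.16, adjusted p = 0.0565, edgeR's quasi-likelihood test). The 2 Mek1/2-tKO libraries of Rsad2 lay apart from each other, at 1.68 and 2.93 CPM, and it was called in the likelihood-ratio test.

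**Figure D3:**
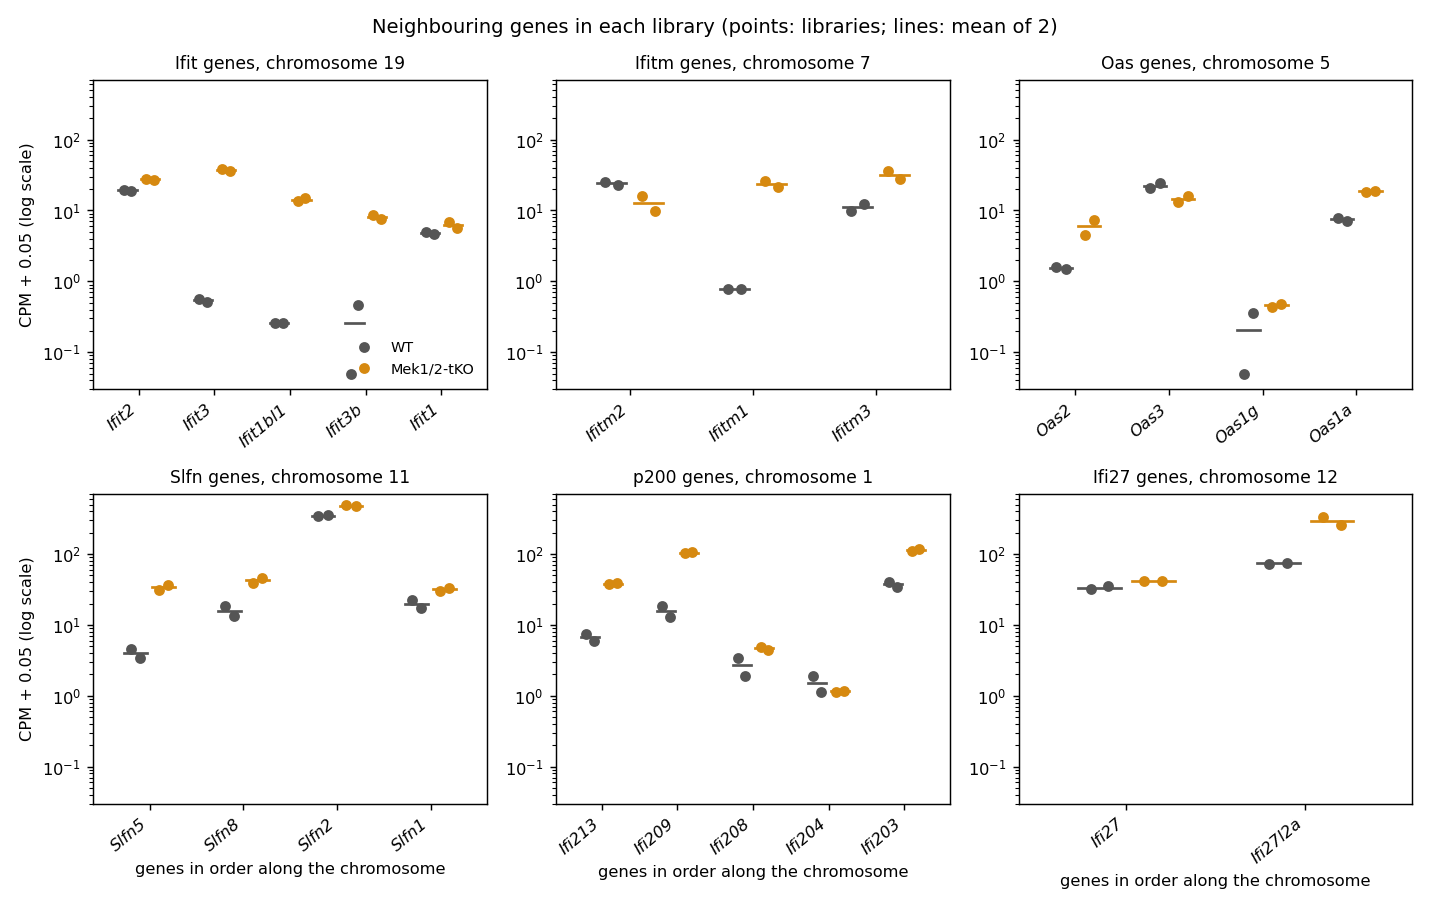
CPM plus 0.05 on a log scale (y axis) in each WT and Mek1/2-tKO library for listed interferon-stimulated genes that share a stretch of chromosome. Genes are in order along the chromosome (x axis, not to scale), with lines at the mean of 2 libraries, and other genes that lie between them are not drawn. Ifit3, Ifit1bl1 and Ifit3b stand far apart by genotype between Ifit2 and Ifit1, and Ifitm2 and Oas3 are lower in Mek1/2-tKO beside neighbours that are higher; points at the bottom for Ifit3b and Oas1g are counts of 0.

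Promoter sequences are shown for the 3 called genes that rose most and the 3 that fell most, among those with a RefSeq promoter window and an average of 3 or more in log2 CPM. Rtp4, which rose more than Slfn5, has no window. The sequences are printed where each gene is described. RefSeq (GRCm38.p6) gave a promoter window for 41 of the 53 genes. The windows, which reach from 250 bases before the start site to 50 bases after it, were searched on both strands for the core of the ISRE, spelled as GAAA, any 2 bases and GAAA. Capitals mark each match, in this and the following sequences. The 250 bases before the start of Ifit3 (chr19:34583279-34583528, plus strand) hold 2 matches, 146 and 112 bases before the start site.
Ifit3: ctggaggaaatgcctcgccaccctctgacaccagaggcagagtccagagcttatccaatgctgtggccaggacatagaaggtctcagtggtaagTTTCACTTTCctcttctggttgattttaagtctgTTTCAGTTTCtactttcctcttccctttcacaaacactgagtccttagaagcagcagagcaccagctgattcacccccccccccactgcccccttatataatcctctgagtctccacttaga
The same pair of matches, with identical flanking bases, stands 178 and 144 bases before the start of Ifit3b. Ifit1bl1, which also rose, has 2 matches in its windows, and Ifit1, which was not called, has 2 as well. They are shown with 6 bases on each side and named by their distance from the start site. The Ifit1bl1 matches lie at chr19:34602063-34602072 and chr19:34599441-34599450 on the minus strand, each upstream of its own start site. Those of Ifit1 lie at chr19:34640785-34640794 and chr19:34640804-34640813 on the plus strand.
Ifit1bl1, at 94 bases: tgtaggTTTCATTTTCtgtagg
Ifit1bl1, at 13 bases: tgtaggTTTCATTTTCtgtaag
Ifit1, at 94 bases: cttcagTTTCACTTTCcagtct
Ifit1, at 75 bases: tctcagTTTCAGTTTCtcactg
The 10 bases of both Ifit1 matches are the same letters as those of Ifit3. A match is a description of the letters, not a measured binding site.

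ISG15 is a ubiquitin-like protein that is attached to other proteins after interferon. No gene of this group of 4 was called, beside 19.3% called higher and 16.4% called lower of all genes tested. Isg15 had 25.3 and 22.3 CPM in WT and 23.7 and 18 CPM in Mek1/2-tKO. Replicate 1 of Mek1/2-tKO lay between the WT libraries and replicate 2 below them (log2 fold change -0.20, adjusted p = 0.312, edgeR's quasi-likelihood test). Usp18, which removes ISG15 and restrains signalling at IFNAR2, had 18.1 and 20.5 CPM in WT and 19.3 and 16.9 CPM in Mek1/2-tKO (log2 fold change -0.10, adjusted p = 0.622, edgeR's quasi-likelihood test). The ISG15 ligase gene Herc6 had 6.93 and 6.54 CPM in WT and 7.49 and 7.56 CPM in Mek1/2-tKO (log2 fold change 0.16). Trim25, a ubiquitin ligase that acts on RIG-I, had 93.5 and 90.2 CPM in WT and 66.8 and 76.7 CPM in Mek1/2-tKO and passed the p threshold with a small difference (log2 fold change -0.35, adjusted p = 0.00719, edgeR's quasi-likelihood test). Neither DESeq2 nor the likelihood-ratio test called any of the 4, and at an unadjusted p under 0.05 Trim25 was the 1 that passed. The Isg15 promoter (chr4:156200875-156200896, minus strand) holds 3 overlapping matches to the ISRE core, which end 68, 62 and 56 bases before the start site.
Isg15, at 68 bases: ccgtagGAAAAGGAAAccgaaa
Isg15, at 62 bases: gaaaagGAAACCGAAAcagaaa
Isg15, at 56 bases: gaaaccGAAACAGAAAatagct

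Among 5 other effectors, 1 rose and 1 fell, which is near the 19.3% called higher and 16.4% called lower of all genes tested. Isg20, a 3′ to 5′ exonuclease, had 15.8 and 15.5 CPM in WT and 36.3 and 24.4 CPM in Mek1/2-tKO. The 2 Mek1/2-tKO libraries differed from each other, but both lay above both WT libraries (log2 fold change 0.95, standard error 0.18). Eif2ak2 (ENSMUSG00000024079.4, chr17:78852564-78882573), which encodes PKR, the kinase that stops translation on sensing double-stranded RNA, had 33.9 and 30.2 CPM in WT and 21.2 and 19.3 CPM in Mek1/2-tKO. It was lower in both Mek1/2-tKO libraries (log2 fold change -0.66, standard error 0.13, adjusted p = 0.000802, edgeR's quasi-likelihood test) and fell under the fold threshold without WT replicate 1 (log2 fold change -0.58). Its upstream 250 bases (chr17:78882573-78882822, minus strand) hold no match to the ISRE core, which instead begins 18 bases after the start site (chr17:78882545-78882554).
Eif2ak2, upstream: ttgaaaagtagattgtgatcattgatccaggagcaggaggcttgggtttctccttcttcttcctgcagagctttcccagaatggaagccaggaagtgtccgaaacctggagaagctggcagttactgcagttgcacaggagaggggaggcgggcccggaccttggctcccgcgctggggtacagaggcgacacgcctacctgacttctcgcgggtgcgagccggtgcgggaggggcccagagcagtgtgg
Eif2ak2, match after the start: cgccggGAAAACGAAAcagaag
The GTPase genes Mx1 and Mx2 were not called. Mx1 had 6.83 and 7.52 CPM in WT and 8.01 and 6.98 CPM in Mek1/2-tKO (log2 fold change 0.06, adjusted p = 0.836, edgeR's quasi-likelihood test), and its genotypes overlapped. Mx2 had 2.31 and 3.11 CPM in WT and 2.52 and 1.23 CPM in Mek1/2-tKO, also with overlap (log2 fold change -0.55, adjusted p = 0.313, edgeR's quasi-likelihood test). Adar, which edits adenosine in double-stranded RNA, had 79.3 and 77.9 CPM in WT and 59.9 and 70.6 CPM in Mek1/2-tKO. It passed the p threshold with a difference under 1.5-fold (log2 fold change -0.27, adjusted p = 0.0407, edgeR's quasi-likelihood test). Of its exon bases 16.8% overlap a gene on the other strand.

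The OAS proteins make the messenger that activates RNase L when they meet double-stranded RNA, and the OASL proteins are their relatives. Of 5 tested genes 4 rose and 1 fell, beside 19.3% called higher and 16.4% called lower of all genes tested. Oasl2 had 6.21 and 3.79 CPM in WT and 20.9 and 21.3 CPM in Mek1/2-tKO (log2 fold change 2.07, standard error 0.22). Oasl1, its neighbour, had 5.64 and 4.67 CPM in WT and 15.4 and 15.4 CPM in Mek1/2-tKO (log2 fold change 1.58, standard error 0.20). The other Oas genes share a stretch of chromosome 5 (chr5:120730333-120907521). At its left end Oas2 had 1.54 and 1.45 CPM in WT and 4.52 and 7.402 CPM in Mek1/2-tKO (log2 fold change 2.00, standard error 0.35). At its right end Oas1a had 7.85 and 7.002 CPM in WT and 18.4 and 18.96 CPM in Mek1/2-tKO (log2 fold change 1.33, standard error 0.17). Between them Oas3, the largest of the OAS proteins, had 20.6 and 24.3 CPM in WT and 12.98 and 15.7 CPM in Mek1/2-tKO. It was lower in both Mek1/2-tKO libraries (log2 fold change -0.64, standard error 0.16, adjusted p = 0.00402, edgeR's quasi-likelihood test). Its fold change fell short of 1.5 without WT replicate 2 (log2 fold change -0.52) and without Mek1/2-tKO replicate 1 (-0.51). Oas1b, in the same stretch but outside the 53 genes, was called higher (log2 fold change 2.10, standard error 0.27). Oas1g was the 1 gene of the 53 that was not tested, with 0 and 6 counts in WT and 6 and 8 counts in Mek1/2-tKO. Of its 150-base stretches 30.1% occur also in Oas1a, as do 32.4% of those of Oas1a in Oas1g.

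The cytosolic nucleic acid sensors divided. Ifih1 (ENSMUSG00000026896.14, chr2:62595798-62646255) encodes MDA5, the sensor of long double-stranded RNA, and had 25.9 and 23.4 CPM in WT and 6.85 and 8.41 CPM in Mek1/2-tKO. Both Mek1/2-tKO libraries lay far below both WT libraries, and this was the largest fall of the 52 genes (log2 fold change -1.68, standard error 0.17, adjusted p = 2.24e-06, edgeR's quasi-likelihood test). Ddx58, which encodes RIG-I, the related sensor of short RNA with 5′ triphosphate, had 12.9 and 12.6 CPM in WT and 30.9 and 32.01 CPM in Mek1/2-tKO and rose (log2 fold change 1.30, standard error 0.14). Another gene of this helicase family, Dhx58 (LGP2), had 15.8 and 15.7 CPM in WT and 20.6 and 21.3 CPM in Mek1/2-tKO and stayed under the fold threshold (log2 fold change 0.41, adjusted p = 0.0266, edgeR's quasi-likelihood test). Zbp1, a sensor of Z-form nucleic acid that can start necroptosis, had 84.2 and 86.7 CPM in WT and 236 and 212 CPM in Mek1/2-tKO and rose (log2 fold change 1.39, standard error 0.09). On the length-corrected level, MDA5 transcripts went from 3.02 to 0.934 RPKM and RIG-I transcripts from 1.81 to 4.46 RPKM, so that the order of these genes in the mean level turned around. The upstream 250 bases of Ifih1 (chr2:62646256-62646505, minus strand) hold no match to the ISRE core, and 1 match begins 32 bases after the start site (chr2:62646214-62646223).
Ifih1, upstream: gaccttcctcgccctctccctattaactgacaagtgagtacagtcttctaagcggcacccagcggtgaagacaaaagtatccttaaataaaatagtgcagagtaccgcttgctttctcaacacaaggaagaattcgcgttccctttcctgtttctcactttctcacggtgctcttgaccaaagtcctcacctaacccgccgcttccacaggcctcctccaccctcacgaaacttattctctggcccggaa
Ifih1, match after the start: agaatcGAAACAGAAAccgatc

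The p200 genes encode DNA-binding proteins, some of which sense DNA, and lie together on chromosome 1 (chr1:173566283-173942672). Ifi209 had 18.2 and 13.1 CPM in WT and 104 and 105 CPM in Mek1/2-tKO (log2 fold change 2.74, standard error 0.14). Ifi213 had 7.29 and 5.91 CPM in WT and 37.2 and 39.4 CPM in Mek1/2-tKO (log2 fold change 2.54, standard error 0.16). Ifi203, another DNA-binding member, had 39.9 and 34.6 CPM in WT and 110.1 and 119.6 CPM in Mek1/2-tKO (log2 fold change 1.62, standard error 0.10). All 3 were higher in both Mek1/2-tKO libraries than in either WT library, as were 39.5% of all genes tested. Ifi208 had 3.39 and 1.87 CPM in WT and 4.78 and 4.42 CPM in Mek1/2-tKO, with the WT libraries far apart, and did not pass (log2 fold change 0.80, adjusted p = 0.0639, edgeR's quasi-likelihood test). The likelihood-ratio test called it, as did the fit without WT replicate 1. Ifi204 had 1.85 and 1.09 CPM in WT and 1.098 and 1.12 CPM in Mek1/2-tKO, with overlapping genotypes (log2 fold change -0.40, adjusted p = 0.546, edgeR's quasi-likelihood test). Outside the list but in the same stretch of chromosome, Mndal was called higher and Ifi211 lower (log2 fold changes 1.21 and -0.76). Sequence is shared within this family: 10% of the 150-base stretches of Ifi209 and 10.8% of those of Ifi204 occur in another p200 gene.

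The IFITM proteins block fusion of viruses with the cell membrane, and the 3 members on chromosome 7 (chr7:140954837-141010770) did not move together. Ifitm1 had 0.719 and 0.726 CPM in WT and 25.7 and 21.3 CPM in Mek1/2-tKO. It went from near absence to a clear level in both Mek1/2-tKO libraries (log2 fold change 5.01, standard error 0.25, adjusted p = 2.36e-09, edgeR's quasi-likelihood test). Ifitm3, which was present in WT, had 9.75 and 12.4 CPM in WT and 36.3 and 27.96 CPM in Mek1/2-tKO and rose less (log2 fold change 1.53, standard error 0.17). Ifitm2 had 25.4 and 23.2 CPM in WT and 15.8 and 9.799 CPM in Mek1/2-tKO. It was lower in both Mek1/2-tKO libraries (log2 fold change -0.93, standard error 0.20, adjusted p = 0.00115, edgeR's quasi-likelihood test). Of the exon bases of Ifitm2 40.9% overlap the gene model Gm45717 on the same strand, so its counts are uncertain. In mean RPKM the order in WT was Ifitm2 at 37.1, Ifitm3 at 16.3 and Ifitm1 at 0.6602. In Mek1/2-tKO it was Ifitm3 at 47.4, Ifitm1 at 21.5 and Ifitm2 at 19.6 RPKM. Upstream of the start, the 250 bases of Ifitm1 (chr7:140967826-140968075, plus strand) hold no ISRE core and those of Ifitm2 (chr7:140955962-140956211, minus strand) hold 1, 36 bases before the start site.
Ifitm1: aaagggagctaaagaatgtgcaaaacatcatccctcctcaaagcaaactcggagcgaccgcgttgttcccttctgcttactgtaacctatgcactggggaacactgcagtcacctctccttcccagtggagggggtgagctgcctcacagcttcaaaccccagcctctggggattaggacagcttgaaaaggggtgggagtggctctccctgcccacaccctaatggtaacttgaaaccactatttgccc
Ifitm2: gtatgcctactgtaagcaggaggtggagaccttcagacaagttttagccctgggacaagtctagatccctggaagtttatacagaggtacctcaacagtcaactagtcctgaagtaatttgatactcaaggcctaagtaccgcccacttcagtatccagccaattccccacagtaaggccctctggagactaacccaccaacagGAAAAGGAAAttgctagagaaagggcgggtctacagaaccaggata
The Ifitm3 window has 2 matches, 2 and 19 bases after its start site, and the first of them has the same 10 letters as the Ifitm2 match. That no match was found in the Ifitm1 window says only that these letters are not in it.

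Of the other membrane proteins, Ifi27l2a, a small hydrophobic protein, had 72.8 and 75.3 CPM in WT and 333 and 260.2 CPM in Mek1/2-tKO and rose (log2 fold change 2.00, standard error 0.11). Ifi27, of the same family and on the same chromosome, had 31.7 and 35.2 CPM in WT and 41.1 and 42.3 CPM in Mek1/2-tKO. This was a difference under the fold threshold (log2 fold change 0.32, adjusted p = 0.0297, edgeR's quasi-likelihood test). Bst2, or tetherin, which holds budding virions at the cell surface, had 152 and 148 CPM in WT and 194 and 179 CPM in Mek1/2-tKO. Both Mek1/2-tKO libraries lay above WT by less than 1.5-fold (log2 fold change 0.31, adjusted p = 0.00433, edgeR's quasi-likelihood test).

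PARP9 and its partner DTX3L form an ADP-ribosylating ubiquitin ligase, and their genes stand head to head beside Parp14. None of the 3 was called by edgeR's quasi-likelihood test, the likelihood-ratio test or DESeq2, and 1 passed an unadjusted p under 0.05. Of all genes tested, the quasi-likelihood test called 19.3% higher and 16.4% lower. Parp9 had 93.3 and 96.5 CPM in WT and 82.4 and 93.3 CPM in Mek1/2-tKO (log2 fold change -0.11, adjusted p = 0.3397, edgeR's quasi-likelihood test). Parp14, which transfers single ADP-ribose units, had 72.8 and 75 CPM in WT and 70.4 and 75.99 CPM in Mek1/2-tKO (log2 fold change -0.01, adjusted p = 0.916, edgeR's quasi-likelihood test). Dtx3l had 69.6 and 70.8 CPM in WT and 49.3 and 51.8 CPM in Mek1/2-tKO and was lower in both Mek1/2-tKO libraries by less than 1.5-fold (log2 fold change -0.47, adjusted p = 0.00101, edgeR's quasi-likelihood test).

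The Schlafen genes, some of which restrain proliferation or viral translation, lie on chromosome 11 (chr11:82951349-83122670), and SAMD9L is an antiviral protein that also restrains growth. All 5 listed genes of this group had both Mek1/2-tKO libraries above both WT libraries, beside 39.5% of all genes tested. Of these 5 genes 4 were called higher, beside 19.3% of all genes tested. In the same stretch but outside the 53 genes, Slfn9 and Slfn10-ps were called lower (log2 fold changes -0.78 and -1.47). Gm11425 and Gm20234, also there, were called higher (log2 fold changes 1.18 and 2.18). Gm20234 had 1 and 7 counts in WT and 14 and 19 counts in Mek1/2-tKO, too few for a firm size. Slfn5 (ENSMUSG00000054404.13, chr11:82951349-82964840) had 4.57 and 3.32 CPM in WT and 30.9 and 36.6 CPM in Mek1/2-tKO (log2 fold change 3.10, standard error 0.19, adjusted p = 1.55e-08, edgeR's quasi-likelihood test). Samd9l had 17.04 and 18.98 CPM in WT and 73.7 and 77.4 CPM in Mek1/2-tKO (log2 fold change 2.07, standard error 0.11). Slfn8 had 18.5 and 13.2 CPM in WT and 39.6 and 45.6 CPM in Mek1/2-tKO (log2 fold change 1.43, standard error 0.16). The smallest called rise was that of Slfn1, at 22.2 and 17.4 CPM in WT and 30.3 and 33.5 CPM in Mek1/2-tKO (log2 fold change 0.69, standard error 0.15), and it was lost without WT replicate 2 (log2 fold change 0.52). Slfn2, which keeps T cells quiescent, had the most counts of the 53 genes, with 339.9 and 351 CPM in WT and 491 and 469 CPM in Mek1/2-tKO. Both Mek1/2-tKO libraries were higher, by less than 1.5-fold (log2 fold change 0.47, adjusted p = 9.61e-05, edgeR's quasi-likelihood test). The 250 bases before the start of Slfn5 (chr11:82951852-82952101, plus strand) hold 1 match to the ISRE core, 145 bases before the start site, inside a run of adenines.
Slfn5: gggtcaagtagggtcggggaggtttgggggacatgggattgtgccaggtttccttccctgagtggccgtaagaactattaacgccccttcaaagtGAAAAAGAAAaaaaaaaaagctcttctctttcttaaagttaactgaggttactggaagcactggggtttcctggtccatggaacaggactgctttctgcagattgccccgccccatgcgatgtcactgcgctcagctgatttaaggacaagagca

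The remaining genes have varied or less settled roles. Rtp4, a Golgi chaperone of membrane receptors, had 1.796 and 2.54 CPM in WT and 35.2 and 28.4 CPM in Mek1/2-tKO and rose steeply (log2 fold change 3.87, standard error 0.21, adjusted p = 5.78e-09, edgeR's quasi-likelihood test). Xaf1, a partner of the apoptosis inhibitor XIAP, had 9.699 and 11.4 CPM in WT and 24.4 and 24.7 CPM in Mek1/2-tKO (log2 fold change 1.22, standard error 0.16). Ifi35 had 43.98 and 41.8 CPM in WT and 80.9 and 69.02 CPM in Mek1/2-tKO (log2 fold change 0.81, standard error 0.11), with 16.8% of its exon bases overlapping a gene on the other strand. Phf11b, of a zinc-finger family, had 27.9 and 28.99 CPM in WT and 71.2 and 78.2 CPM in Mek1/2-tKO and rose (log2 fold change 1.40, standard error 0.11). Its relative Phf11d was scarce, at 1.23 and 0.622 CPM in WT and 1.87 and 1.39 CPM in Mek1/2-tKO, and did not pass (log2 fold change 0.80, adjusted p = 0.244, edgeR's quasi-likelihood test). Ifi44 was scarce too, at 2.05 and 1.04 CPM in WT and 1.098 and 2.08 CPM in Mek1/2-tKO, with overlapping genotypes (log2 fold change 0.05, adjusted p = 0.941, edgeR's quasi-likelihood test). Trim30a, a ubiquitin ligase, had 83.5 and 77.9 CPM in WT and 61.6 and 69.7 CPM in Mek1/2-tKO. Lgals3bp, a secreted glycoprotein, had 76.5 and 77.9 CPM in WT and 56.2 and 61.5 CPM in Mek1/2-tKO. Both were lower in the 2 Mek1/2-tKO libraries by less than 1.5-fold (log2 fold changes -0.30 and -0.39, adjusted p = 0.0216 and 0.00372, edgeR's quasi-likelihood test).

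Read across all windows, the ISRE core was present in genes of every call. It was found in 22 of the 41 genes with a window (53.7%), beside 3.99% of the 27025 mouse genes with a window. It was present for 11 of 21 genes called higher, for all 4 called lower and for 6 of 15 that were not called. The gamma-activated site, a motif of the interferon-γ response, was searched as TTC, any 3 bases and GAA, which reads the same on both strands, and was found in 8 of the 41 genes (19.5%) beside 9.55% of all genes with a window. The 2 motifs can overlap by a few bases, and a match is no measurement of binding.

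The genes upstream of these targets were read from a list of 58 pathway genes, of which 37 could be tested. In Mek1/2-tKO 16 were called higher, beside 19.3% of all genes tested, and 4 lower, beside 16.4%. Type I interferon transcripts were all but absent: 16 of the 17 type I interferon genes listed had 0 counts in the 4 libraries, and the highest count of any of them in a library was 2. The type II gene Ifng had 127 and 121 CPM in WT and 2054 and 1773 CPM in Mek1/2-tKO (log2 fold change 3.95, standard error 0.10, adjusted p = 1.80e-12, edgeR's quasi-likelihood test), in cultures that held blocking antibody to IFN-γ. The gene model Gm49751 covers 25.9% of its exon bases.

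The receptor chain Ifnar2 had 25.4 and 27.4 CPM in WT and 43.99 and 38.5 CPM in Mek1/2-tKO and was called higher (log2 fold change 0.64). Ifnar1 had 71.1 and 74.8 CPM in WT and 56.8 and 59.4 CPM in Mek1/2-tKO and was not (log2 fold change -0.33, adjusted p = 0.0106, edgeR's quasi-likelihood test). Stat2 and Irf9, whose products bind the ISRE together, each rose by less than 2-fold. Stat2 had 52.9 and 66.8 CPM in WT and 80.2 and 106 CPM in Mek1/2-tKO (log2 fold change 0.64, standard error 0.14), and its partner Irf9 had 49.2 and 45.5 CPM in WT and 89.2 and 86.4 CPM in Mek1/2-tKO (log2 fold change 0.89, standard error 0.10). The kinases of the type I receptor, Jak1 (log2 fold change -0.16) and Tyk2 (log2 fold change 0.15), were not called. Jak2, which serves the interferon-γ receptor, had 296 and 289 CPM in WT and 98.9 and 101 CPM in Mek1/2-tKO and was lower (log2 fold change -1.54, standard error 0.08). Of the genes of that receptor, Ifngr1 was called higher (log2 fold change 0.84) and Ifngr2 was not called (0.51). Irf7, the factor that amplifies type I interferon production and is itself interferon-stimulated, had 7.59 and 6.38 CPM in WT and 56.5 and 60.5 CPM in Mek1/2-tKO (log2 fold change 3.07, standard error 0.14, adjusted p = 9.27e-10, edgeR's quasi-likelihood test). Irf1 and Irf5 rose with log2 fold changes of 0.99 and 1.63, and Irf3 and Irf8, at 0.39 and 0.07, were not called. Irf2 was called higher too (log2 fold change 0.69), with the Mek1/2-tKO libraries apart from each other at 44.25 and 69.6 CPM.

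Among the inhibitors Socs1, which blocks JAK kinases, had 188 and 192 CPM in WT and 458 and 500.3 CPM in Mek1/2-tKO and rose (log2 fold change 1.34, standard error 0.08). Cish and the phosphatase gene Ptpn11 were lower (log2 fold changes -0.98 and -0.85). The endosomal sensor genes Tlr7 and Tlr9 had log2 fold changes of 1.20 and 2.23, and Tlr9 is an endosomal receptor for DNA that B cells and plasmacytoid dendritic cells express. Tlr3 was called higher from 2 and 2 counts in WT and 15 and 18 counts in Mek1/2-tKO, too few for a firm size. Of the adaptors, Mavs, on which MDA5 and RIG-I signal, Sting1 and Tbk1 were not called (log2 fold changes -0.25, 0.00 and 0.06), and Ikbke was lower (log2 fold change -1.12).

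**Figure D4:**
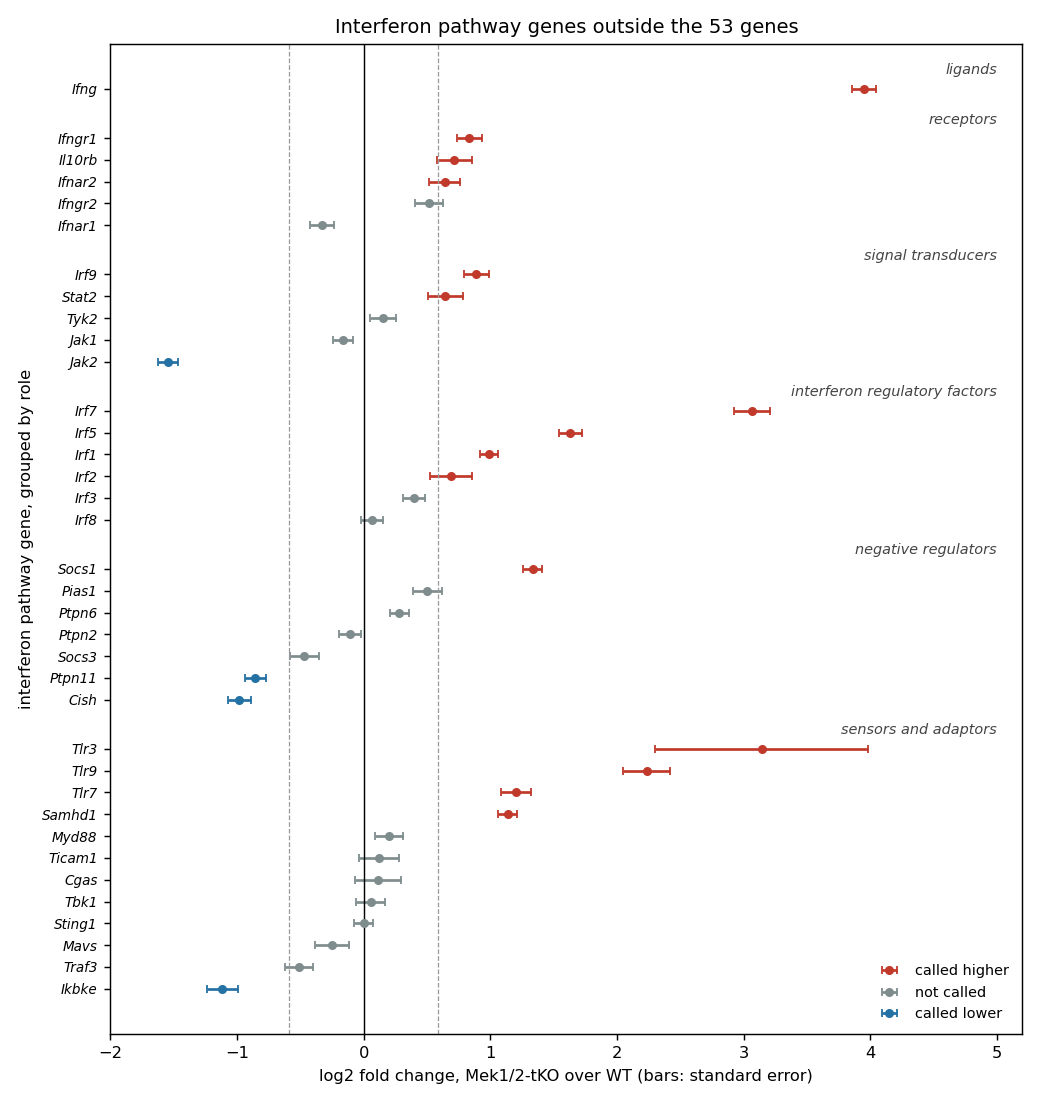
Log2 fold change in Mek1/2-tKO over WT (x axis) of tested genes of the interferon pathway outside the 53 genes, with bars for the standard error and genes grouped by role (y axis); dashed lines mark a fold change of 1.5. Ifng and Irf7 stand farthest to the right among genes with more than a few counts, Stat2 and Irf9 lie at 0.64 and 0.89, and Jak2 is farthest to the left.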

How the data were processed

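Per the study's methods, the authors trimmed reads from a stranded mRNA kit with Trimmomatic 0.36, mapped them to GRCm38 (the mapper is written STRA) and counted uniquely mapped reads per gene with featureCounts of Subread 1.5.1. The deposited values are raw counts, 1 library per file; the annotation release and the strand setting are not given in the sources used here, so a gene and one that overlaps it on the other strand may share reads. Symbols were matched for 54723 of 54752 identifiers.

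From these counts, the genotypes were compared over all 4 libraries with R 4.3.3 and edgeR 4.0.16: its filterByExpr filter, TMM scaling, the robust quasi-likelihood test (two-sided) and Benjamini-Hochberg adjustment over all 14330 genes tested. Calls used the study's thresholds, a 1.5-fold difference and an adjusted p of 0.05. CPM and RPKM used the TMM library sizes and the exon lengths in the files. Replicates differed by more than sampling noise (chi-square per gene 4.19 in WT and 10.9 in Mek1/2-tKO).

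The 53 genes, the pathway and marker lists and the roles were chosen with earlier results of these data known. By rule, the value in every library is given, within each role, for up to 4 called genes, every gene called lower and every tested gene not called. Outside the 53, genes of the pathway and marker lists, Map2k1 and Map2k2 are named. Called genes that lie between the Oas, Schlafen or p200 genes are named as well. Of the pathway list 1 gene is counted but is not reported here. Results were recomputed with DESeq2 1.42.0, with edgeR's likelihood-ratio test, 2 other scalings, 2 filters, 2 other thresholds, a replicate block and leaving out each library. Promoters came from RefSeq (GRCm38.p6), and repeated 150-base stretches from the GENCODE M21 transcripts, with Python 3.11.15 and pandas 2.3.3.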

Additional observations from a re-analysis of the deposited data

How the results depend on the processing

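All 29 calls among the interferon-stimulated genes were kept by DESeq2, the likelihood-ratio test, both other scalings (size factors of DESeq2, and library size alone), testing without a filter, an adjusted p under 0.01 and the replicate block, and no called gene changed sign under any alternative. Libraries with the same replicate number did not deviate together (correlation -0.0262 across genes, 2 pairs); with the replicate block 25 genes were higher and 4 lower, the median log2 fold change was 0.83, and over all genes 2652 were higher and 2300 lower. With at least 10 counts in every library Ifit3, Ifit1bl1 and Ifit3b were not tested and Rsad2 was called, which left 23 higher and 4 lower. At a fold change of at least 2, 1 interferon-stimulated gene was lower (Ifih1), 8 pathway genes were higher and 2 lower, and over all genes 1725 were higher and 1040 lower, since that threshold is stricter. The median over the tested genes lay between 0.51 (without WT replicate 2) and 0.92 (without WT replicate 1) when 1 library was left out, and the lone library of a genotype is then assumed to vary like the other; calls lost were Eif2ak2 without WT replicate 1, Oas3 and Slfn1 without WT replicate 2 and Oas3 without Mek1/2-tKO replicate 1. Scarce genes had wide errors: Rsad2 and Phf11d, with log2 fold changes of 1.16 and 0.80, did not pass the p threshold.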
